A study of Macaca mulatta with 24 samples.

Results

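Transcripts of 10 antioxidant enzymes, SOD1, SOD2, CAT, GPX1, GPX4, PRDX1, PRDX2, PRDX6, TXN and GCLM, were followed in whole blood of rhesus macaques before and after total body irradiation. They were taken by name: every non-control probe whose gene name in the scanner output is one of the 10 symbols was used, which gave 15 of 43603 probes and 10 of 15040 gene symbols. SOD2, CAT, PRDX6, TXN and GCLM have 2 probes each and the other 5 genes have 1. All 15 probes were well above background on all 24 arrays and none was saturated, so all were tested.

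Adult Macaca mulatta received 4 Gy to the whole body, and blood was drawn before irradiation (7 arrays, 4 from males and 3 from females), at day 3 (4 arrays, 3 and 1), at day 5 (6 arrays, 4 and 2) and at day 7 (7 arrays, 4 and 3). The animals are not genetically modified and got no other agent that the labels name, and the unirradiated state is represented by the earlier blood of the same animals and not by a sham group on arrays. The labels name X-rays and the study's methods a cobalt gamma source. RNA was depleted of globin transcripts, labelled with Cy3 and hybridized to a one-colour Agilent rhesus array, with 1 array per blood sample. Replicate numbers were treated as animals, so that replicate 4 at day 7 is the animal of replicate 4 before irradiation.

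Superoxide dismutases turn superoxide into hydrogen peroxide, and catalase, glutathione peroxidases and peroxiredoxins then reduce the peroxide to water. Thioredoxin returns peroxiredoxins to their reduced state, and glutamate-cysteine ligase, of which GCLM is the modifier subunit, makes the precursor of glutathione. Red cells, which carry iron and oxygen without a nucleus or mitochondria, depend on catalase, GPX1 and PRDX2, whereas SOD2 is a mitochondrial enzyme that inflammatory signals induce in leukocytes.

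Probes are 60 bases long, and 3 of them are shown because the results turn on which stretch of a transcript was read: the SOD2 probe with the higher signal, the CAT probe that did not follow the other CAT probe, and the TXN probe that shares bases with the other TXN probe. Capitals mark the 24 bases at its 3′ end with which the other TXN probe begins.
SOD2 probe 1: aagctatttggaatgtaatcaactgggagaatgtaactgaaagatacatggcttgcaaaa
CAT probe 2: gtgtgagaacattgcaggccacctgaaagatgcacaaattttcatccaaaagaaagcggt
TXN probe 1: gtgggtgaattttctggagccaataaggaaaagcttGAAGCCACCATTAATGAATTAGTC

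The scanner output, whose header names the rhesus build rheMac2, places these probes on the minus strand at chr4:156676331-156676390 (SOD2 probe 1, as listed) and chr14:37356013-37358663 (CAT probe 2, a span longer than the probe), and on the plus strand at chr15:25961657-25961716 (TXN probe 1). The 2 TXN probes therefore read overlapping sequence. The listed positions of both SOD2 probes overlap by 34 bases, yet their longest shared run of letters is 5 bases, so neither listed place of a SOD2 probe was relied on. Probe 1 of a gene is always the one with the higher mean signal over the 24 arrays and represents the gene below. Levels are given as normalized log2 signal, which can be compared between samples for a probe but not between probes.

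The threshold for calling a change was an adjusted p below 0.005 in limma, by the Benjamini-Hochberg method over all probes tested. At day 3, 2 of the 15 probes were called, 1 lower and 1 higher, while 13.5% of all 27132 probes tested were called, 8.02% lower and 5.43% higher. At day 5, 6 of 15 were called and all 6 were lower, where 16.7% of all 27138 probes were called and 9.58% were lower. At day 7, 4 of 15 were called and all 4 were lower, where 10.9% of all probes were called and 7.27% were lower. By brightest probe the counts were 1, 6 and 4 of the 10 genes, all lower, and the median difference over the 10 genes was −0.51, −1.02 and −0.72 on the log2 scale at day 3, day 5 and day 7, against medians of −0.00, −0.00 and −0.01 over all genes. The share of called probes at day 3 thus lay at the background, and those at day 5 and day 7 were above it.

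**Figure D1:**
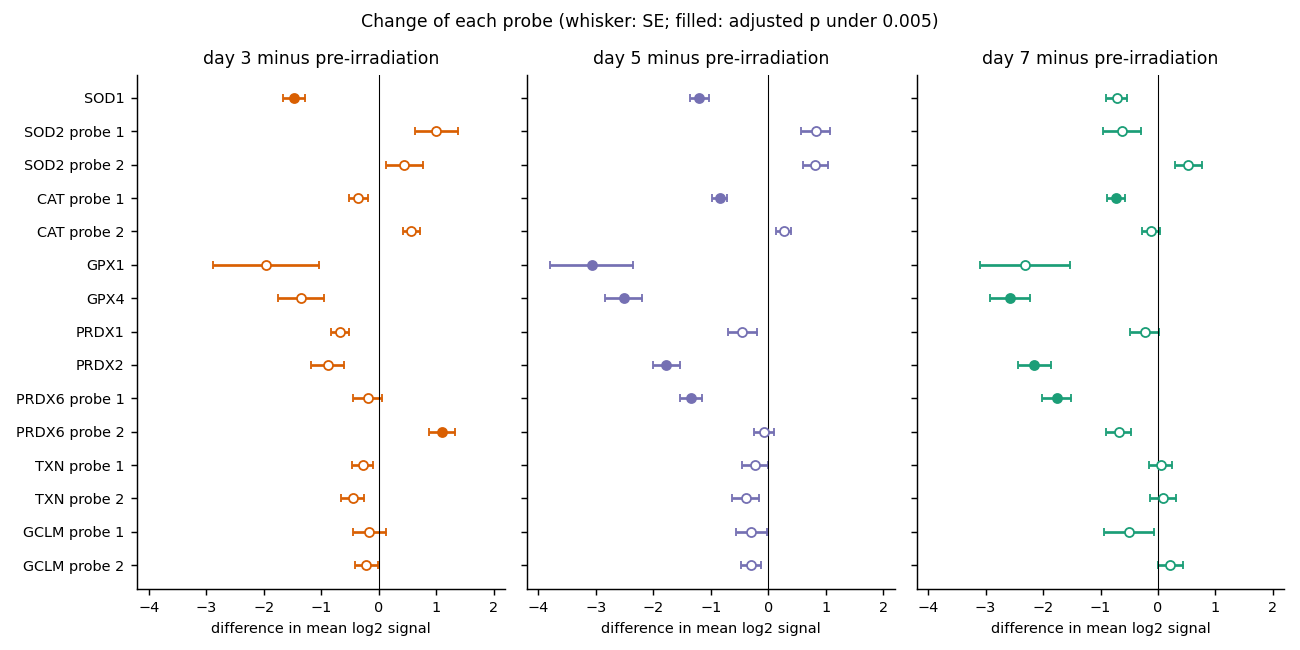
Difference in mean log2 signal between each day and the pre-irradiation arrays (x axis, log2 units) for the 15 probes (y axis), with whiskers for the standard error and filled points where the adjusted p was under 0.005. GPX4, PRDX2, PRDX6 probe 1, CAT probe 1, GPX1 and SOD1 are filled to the left of 0 at day 5, and PRDX6 probe 2 is filled to the right of 0 at day 3.

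Scan session limits 2 of these comparisons. By the scan times in the headers, 6 pre-irradiation and 6 day 7 arrays were scanned in session 1, and 1 pre-irradiation (replicate 5), 4 day 3, 6 day 5 and 1 day 7 array in session 2. For day 3 and day 5, time and session could be separated only through pre-irradiation replicate 5. That array had the highest of the 7 pre-irradiation values for GPX1, GPX4, PRDX2 and PRDX6 probe 1, the second lowest for SOD1 and the lowest for both GCLM probes. With session as a block, 0 of the 15 probes were called at day 3, 2 at day 5 (GPX4 and PRDX2) and 4 at day 7, when 37, 383 and 2916 of all probes were called at these times. With slide as a block 0 of the 15 and 0 of all 27132 probes were called at day 3, so that the counts of 0 are not particular to these enzymes. The day 5 differences that were then not called were −0.75 for CAT probe 1 (adjusted p = 0.101), −4.67 for GPX1 (adjusted p = 0.0585), −1.88 for PRDX6 probe 1 (adjusted p = 0.0064) and that of SOD1. After normexp background correction 0, 1 and 3 of the 15 probes were called at day 3, day 5 and day 7, against 136, 238 and 309 of all probes, namely GPX4 at day 5 and GPX4, PRDX2 and PRDX6 probe 1 at day 7.

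SOD1, the cytosolic copper and zinc superoxide dismutase, fell early and lay nearer its starting level at day 7. Its log2 signal ranged from 13.45 to 14.16 before irradiation with a median of 13.97. At day 3 the 4 arrays had 12.60, 12.69, 11.98 and 12.28. At day 5 the values ran from 12.33 to 13.02 with a median of 12.65, and at day 7 from 12.79 to 13.65 with a median of 13.11. All day 3 and all day 5 arrays lay below every pre-irradiation array, as did 5 of 7 at day 7. The mean was 2.78 times lower at day 3 (log2 difference −1.47 ± 0.19 SE, adjusted p = 0.000364) and 2.30 times lower at day 5 (−1.20 ± 0.16, adjusted p = 8.86e-05). The day 7 difference of −0.72 ± 0.18 had an adjusted p of 0.0085 and did not pass, and passed with all 4 groups in 1 fit (adjusted p = 0.00238). With session as a block the day 3 and day 5 differences were −1.17 (adjusted p = 0.0827) and −0.90 (adjusted p = 0.0997), and with slide as a block the day 3 difference was −1.43 (adjusted p = 0.0808).

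SOD2, the mitochondrial manganese superoxide dismutase, was the only one of the 10 genes whose brightest probe had a higher mean at day 3 and at day 5 than before irradiation, and neither difference passed the test. Probe 1 ranged from 16.81 to 18.41 before irradiation with a median of 17.94. Its 4 day 3 arrays had 19.27, 17.87, 19.27 and 18.48, the day 5 arrays lay between 18.43 and 18.78 with a median of 18.48, and the day 7 arrays between 16.17 and 18.06 with a median of 17.25. All 6 day 5 arrays and 3 of 4 day 3 arrays thus lay above every pre-irradiation array, and no day 7 array did. The mean was 2.01 times the pre-irradiation mean at day 3 (SE of the log2 difference 0.37, adjusted p = 0.054) and 1.77 times at day 5 (log2 difference 0.82 ± 0.26, adjusted p = 0.0228), and differed by −0.62 ± 0.33 at day 7 (adjusted p = 0.169). The 95% intervals of the log2 differences ran from 0.19 to 1.82, from 0.27 to 1.37 and from −1.32 to 0.07. SOD2 probe 2 gave 0.45, 0.82 and 0.53 on the 3 days, so that both probes had positive differences at day 3 and day 5 and opposite signs at day 7. None of the 3 passed for probe 2, and its day 5 difference passed without replicate 6 (adjusted p = 0.00186). After quantile normalization the day 7 difference of probe 1 was 0.21, the other way round. All day 3 and day 5 arrays came from session 2, and most arrays of the other times from session 1. With session as a block the day 3 difference of probe 1 was 0.78 ± 0.69 (adjusted p = 0.563). After normexp background correction its differences were 1.04 at day 3 (adjusted p = 0.427) and 0.34 at day 5 (adjusted p = 0.669).

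Catalase was read differently by its 2 probes. Probe 1 ranged from 13.74 to 14.13 before irradiation with a median of 13.93. At day 3 its arrays had 13.95, 13.27, 13.38 and 13.69, at day 5 they lay between 12.87 and 13.35 with a median of 13.07, and at day 7 between 12.69 and 13.50 with a median of 13.34. Every day 5 and day 7 array was below every pre-irradiation array. The fall was 1.80-fold at day 5 (−0.85 ± 0.13, adjusted p = 0.000258) and 1.66-fold at day 7 (−0.73 ± 0.16, adjusted p = 0.00333), after −0.35 ± 0.17 at day 3 (adjusted p = 0.115). CAT probe 2, which shares no run longer than 5 bases with probe 1 and lies 908 bases away by the listed positions, had differences of 0.57 ± 0.15 at day 3 (adjusted p = 0.0121), 0.27 ± 0.13 at day 5 and −0.12 ± 0.15 at day 7, none of them called. All 4 day 3 arrays and 5 of 6 day 5 arrays of probe 2 lay above its pre-irradiation arrays, where probe 1 had none. The day 7 call of probe 1 was lost with the replicate number as a block (adjusted p = 0.0123), when replicate 1, 2, 3, 4, 5 or 7 was left out (highest adjusted p = 0.0152), and after quantile normalization (−0.41, adjusted p = 0.0442). With the mean of both probes neither day was called (−0.29 at day 5, −0.43 at day 7).

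GPX1, the cytosolic glutathione peroxidase, had the widest spread between animals before irradiation, at day 3 and at day 7. At day 5 the SD of PRDX1 was larger (0.66, against 0.58 for GPX1). Before irradiation replicates 2 and 4 had 15.56 and 15.18, and the other 5 animals had 18.66 to 19.67. At day 3 the arrays of replicates 1, 2, 4 and 7 had 17.55, 15.70, 14.88 and 16.32. At day 5 the values lay between 14.47 and 15.74 with a median of 14.80, and at day 7 between 14.43 and 18.05 with a median of 15.83. Replicates 2 and 4 were at 15.70 or below on every array, before and after irradiation, and the other 4 animals with a day 5 array lay between 14.55 and 15.74 at that time. Replicate 5, which has no day 5 array, was at 18.05 at day 7. The group difference was −3.08 ± 0.72 at day 5 (8.43-fold lower, adjusted p = 0.0047), −1.96 ± 0.91 at day 3 (adjusted p = 0.113) and −2.31 ± 0.78 at day 7 (adjusted p = 0.0387). Measured within animals, GPX1 was lower in 6 of 6 animals at day 5, with log2 differences of −0.70 in replicate 4 and −1.04 in replicate 2 and of −3.20 to −4.78 in the other 4, and lower in 7 of 7 at day 7. With the replicate number as a block the day 7 difference of −2.31 was called (adjusted p = 0.00348). The day 5 call was lost without replicate 1, 3, 5, 6 or 7 (highest adjusted p = 0.0229) and after quantile normalization (−2.76, adjusted p = 0.00981).

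**Figure D2:**
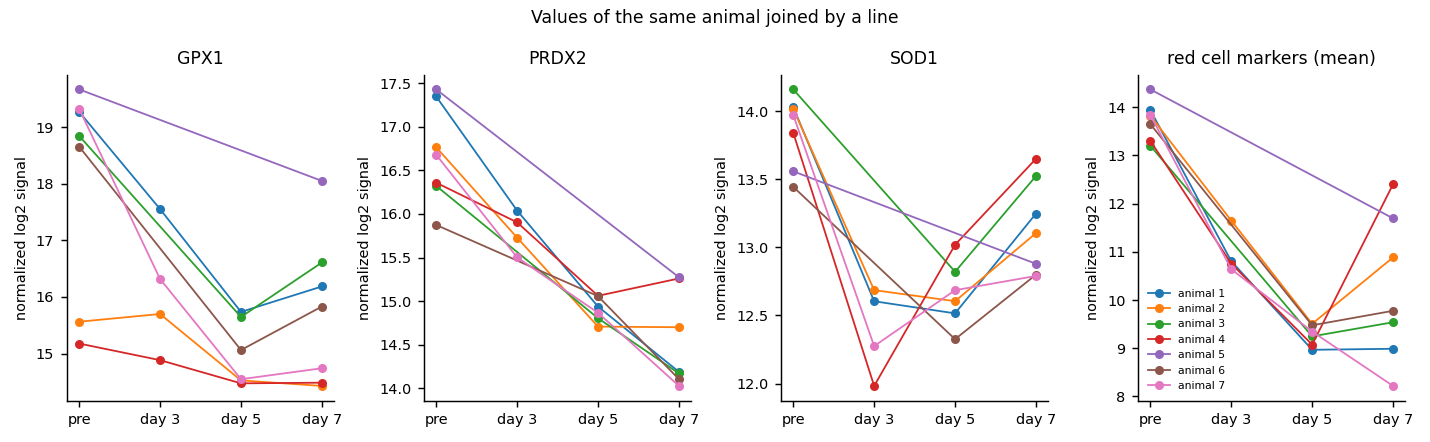
Normalized log2 signal (y axis) of GPX1, PRDX2, SOD1 and the mean of the 15 red cell marker genes over the 4 sampling times (x axis), with points of the same replicate number joined by a line. Replicates 2 and 4 start at 15.56 and 15.18 for GPX1 while the other 5 animals start between 18.66 and 19.67, and SOD1 is lowest at day 3 or day 5 in the 6 animals with arrays at those days.

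GPX4, which reduces lipid hydroperoxides in membranes, and PRDX2, the peroxiredoxin that is abundant in red cells, fell at both later times. For GPX4 the pre-irradiation arrays ran from 16.90 to 18.68 with a median of 17.74, and the 4 day 3 arrays had 16.35, 17.19, 16.28 and 15.89. Day 5 arrays lay between 14.67 and 15.71 with a median of 15.32, and day 7 arrays between 14.46 and 16.00 with a median of 15.08. Every array of the 2 later times was below all pre-irradiation arrays. GPX4 was 5.73 times lower at day 5 (−2.52 ± 0.32, adjusted p = 5.91e-05) and 5.97 times lower at day 7 (−2.58 ± 0.35, adjusted p = 0.000111), and at day 3 the difference was −1.36 ± 0.40 (adjusted p = 0.0207). All 6 animals at day 5 and all 7 at day 7 were lower than before irradiation, with log2 differences from −1.02 to −3.64.

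PRDX2 ran from 15.87 to 17.43 before irradiation with a median of 16.68. Its day 3 arrays had 16.04, 15.73, 15.90 and 15.50, its day 5 arrays lay between 14.71 and 15.06 with a median of 14.90, and its day 7 arrays between 14.03 and 15.27 with a median of 14.19. Again, no day 5 or day 7 array reached the lowest pre-irradiation array. PRDX2 was 3.43 times lower at day 5 (−1.78 ± 0.23, adjusted p = 7.72e-05) and 4.44 times lower at day 7 (−2.15 ± 0.28, adjusted p = 8.48e-05), with −0.89 ± 0.28 at day 3 (adjusted p = 0.0301). With session as a block the day 5 differences of GPX4 and PRDX2 were −3.42 (adjusted p = 0.00382) and −2.52 (adjusted p = 0.00282), and within session 1 alone, 6 arrays against 6, both were called at day 7 (−2.54 and −2.15). After quantile normalization the day 7 difference of PRDX2 was −1.49 and still called.

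PRDX6, a peroxiredoxin that draws on glutathione, fell by its first probe and differed between probes at day 3. Probe 1 ran from 16.09 to 17.20 before irradiation with a median of 16.59. The day 3 arrays had 16.54, 17.03, 16.31 and 16.00, the day 5 arrays lay between 15.00 and 15.61 with a median of 15.32, and the day 7 arrays between 13.99 and 15.88 with a median of 14.92. All arrays of the 2 later times lay below the pre-irradiation arrays, and the day 3 arrays overlapped with them. Probe 1 was 2.53 times lower at day 5 (−1.34 ± 0.19, adjusted p = 0.000156) and 3.39 times lower at day 7 (−1.76 ± 0.25, adjusted p = 0.000176), and the day 3 difference was −0.19 ± 0.25 (adjusted p = 0.573). After quantile normalization its day 7 difference was −1.07.

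PRDX6 probe 2, which lies 577 bases from probe 1 on the same transcript by the listed positions, ran from 13.90 to 14.52 before irradiation with a median of 14.19. At day 3 it had 15.41, 15.90, 14.77 and 14.88, above every pre-irradiation array, and at day 5 and day 7 its medians were 14.05 and 13.66. It rose 2.15-fold at day 3 (1.11 ± 0.22, adjusted p = 0.00321), with a difference of −0.07 ± 0.18 at day 5 and −0.68 ± 0.22 at day 7 (adjusted p = 0.0296). That day 3 call was lost with the replicate number as a block (1.11, adjusted p = 0.0112) and without replicate 1, 2, 3, 4, 6 or 7 (highest adjusted p = 0.0201). With slide as a block the difference was 0.59 (adjusted p = 0.377). Both probes had their lowest median at day 7, and all 7 values of probe 2 at that time were under its lowest pre-irradiation value.

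**Figure D3:**
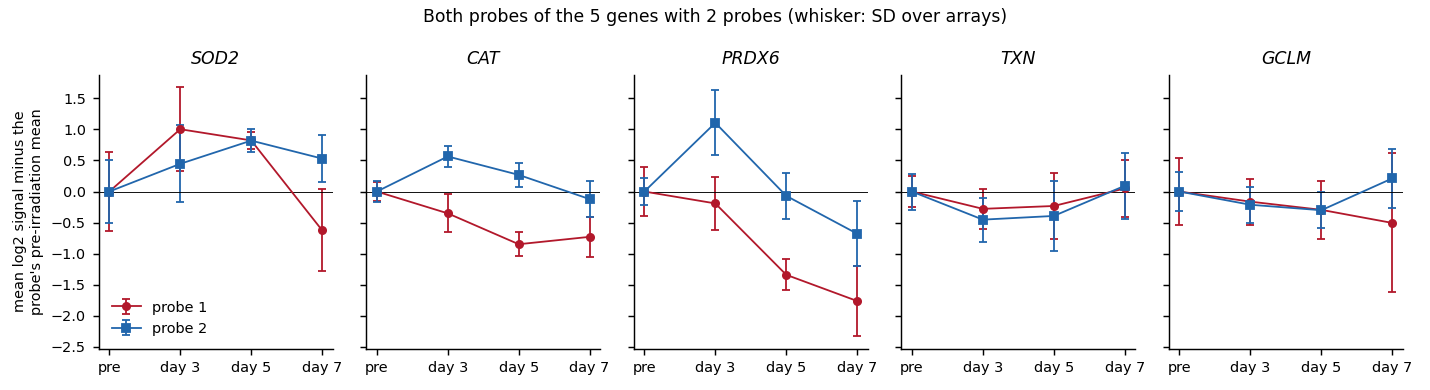
Group means of both probes of SOD2, CAT, PRDX6, TXN and GCLM, each minus the probe's own pre-irradiation mean (y axis, log2 units), at the 4 sampling times (x axis), with whiskers for the SD over arrays. The 2 TXN probes run together, whereas at day 3 PRDX6 probe 2 is at 1.11 and probe 1 at −0.19, and CAT probe 2 at 0.57 and probe 1 at −0.35.

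PRDX1, the main cytosolic peroxiredoxin of nucleated cells, was not called on any day. Its pre-irradiation arrays ran from 14.38 to 15.01, and the day 3 arrays had 14.24, 13.96, 13.89 and 14.27, all below them. That difference was −0.67 ± 0.16 (95% interval −1.01 to −0.32, adjusted p = 0.00783), and it passed without replicate 6 (adjusted p = 0.00472) and over probes well above background on all arrays (adjusted p = 0.00478). It did not pass when any other replicate was left out (highest adjusted p = 0.0488). Nor did it pass with the replicate number as a block (adjusted p = 0.0378), all 4 groups in 1 fit (adjusted p = 0.102) or session as a block (adjusted p = 0.263). At day 5 and day 7 the arrays spread more widely, from 13.69 to 15.48 and from 13.58 to 15.71, with differences of −0.45 ± 0.25 and −0.23 ± 0.26. The highest array of both times was that of replicate 4.

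TXN, the thioredoxin that reduces peroxiredoxins, and GCLM were not called by either probe on any day. TXN probe 1 ran from 13.80 to 14.45 before irradiation, and its day 3 arrays had 14.28, 13.81, 13.51 and 13.76. The day 5 arrays lay between 12.90 and 14.37 and the day 7 arrays between 13.56 and 15.06, so that all groups overlapped. The differences were −0.28, −0.23 and 0.05 at day 3, day 5 and day 7, and the 95% intervals, from −0.69 to 0.13, from −0.71 to 0.24 and from −0.38 to 0.48, leave out a doubling or a halving of the signal. Probe 2 had −0.45, −0.39 and 0.09. GCLM probe 1 had a lowest value of 10.54 and a median of 11.03 before irradiation and ran at day 7 from 8.60 to 11.83, where replicates 2 and 3 were at 9.59 and 8.60. Its differences were −0.16, −0.29 and −0.51 (95% interval at day 7 −1.42 to 0.41), and those of probe 2 were −0.21, −0.30 and 0.21, so that the probes had opposite signs at day 7. Within animals both GCLM probes were lower in 4 of 4 at day 3, with log2 differences of −0.11 to −0.99 for probe 1 and −0.28 to −0.42 for probe 2, and in 6 of 6 at day 5, and lower in 3 of 7 at day 7. With the replicate number as a block neither probe was called at any time (smallest adjusted p = 0.0591, probe 1 at day 5).

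**Figure D4:**
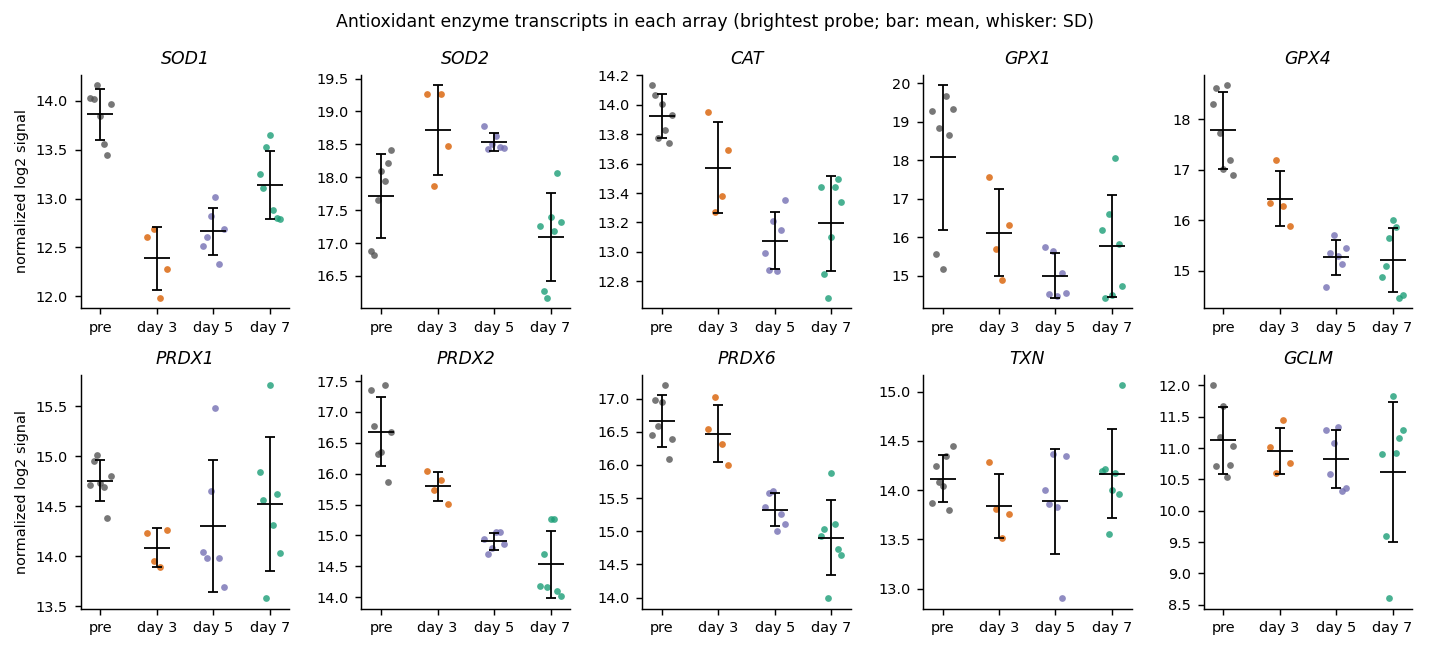
Normalized log2 signal (y axis, scaled separately for each gene) of the brightest probe of each of the 10 genes on every array, grouped by sampling time (x axis), with a bar for the mean and whiskers for the SD. All day 5 and day 7 points of CAT, GPX4, PRDX2 and PRDX6 lie below all pre-irradiation points, and those of TXN and GCLM overlap with them.

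Between the irradiated times, 0 of the 15 probes were called in any of 3 comparisons. This held at 0.0184% of all probes called for day 5 against day 3, 1.26% for day 7 against day 3 and 0.00368% for day 7 against day 5, and 6, 7 and 5 of the 15 probes had an unadjusted p under 0.05. Day 3 and day 5 arrays all came from session 2. All 6 day 5 arrays lay below all 4 day 3 arrays for GPX4 (−1.16 ± 0.27, adjusted p = 0.129), PRDX2 (−0.89 ± 0.16, adjusted p = 0.0641) and both PRDX6 probes (−1.15 ± 0.22, adjusted p = 0.0797, and −1.18 ± 0.27, adjusted p = 0.124). The smallest adjusted p of the 3 comparisons was that of PRDX6 probe 2 at day 7 against day 3 (−1.79 ± 0.32, adjusted p = 0.00586), with −1.57 ± 0.32 for probe 1 (adjusted p = 0.00936) and all 7 day 7 arrays below all 4 day 3 arrays for both probes. PRDX2 was also lower on all 7 day 7 arrays than on any day 3 array (−1.26 ± 0.29, adjusted p = 0.0151). SOD2 probe 1 was lower on all 7 day 7 arrays than on any day 5 array (−1.45 ± 0.27, adjusted p = 0.0237) and gave −1.63 ± 0.39 against day 3 (adjusted p = 0.0174). SOD1 went the other way, with all 7 day 7 arrays above all 4 day 3 arrays (0.76 ± 0.23, adjusted p = 0.0449). When all 4 groups shared 1 fit, 5 probes were called at day 7 against day 3, namely both PRDX6 probes, PRDX2, SOD2 probe 1 and CAT probe 2, all lower. In that fit 2179 of all 27138 probes were called, in place of 343. Day 7 arrays were mostly from a different scan session than the day 3 and day 5 arrays, so both comparisons with day 7 largely cross sessions.

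Markers of blood cells moved on the same arrays, and in bulk blood fewer cells of a type and less RNA per cell cannot be told apart. Of 18 red cell markers 15 were measured. At the 3 times 10, 13 and 12 of them were called lower, against 7.58%, 9.11% and 7.18% of all genes. The mean log2 signal of the 15 lay between 13.20 and 14.37 before irradiation and between 10.64 and 11.65 on the day 3 arrays. On the day 5 arrays it lay between 8.97 and 9.51, and on the day 7 arrays between 8.22 and 12.40, always below the lowest pre-irradiation value. ALAS2, the first enzyme of heme synthesis in red cell precursors, was called lower at each time, with log2 differences of −3.63, −8.06 and −4.96, and HBB, whose transcript the globin depletion targets, differed by −1.15 at day 3, which did not pass, and was called lower at day 5 (−4.08) and day 7 (−3.63). SLC4A1, the red cell anion exchanger, was well above background on all 7 pre-irradiation arrays and on 0 of 6 at day 5, at least 43.4-fold lower there. GPX4, PRDX2, PRDX6 probe 1 and CAT probe 1 were called lower at day 5 and day 7 and GPX1 at day 5, and none of these 5 probes was called at day 3, when the red cell mean was already below its pre-irradiation range on all 4 arrays. Their day 3 differences, given above, were −1.36 for GPX4, −0.89 for PRDX2, −0.19 for PRDX6 probe 1, −0.35 for CAT probe 1 and −1.96 for GPX1, and GPX4, PRDX2 and CAT probe 1 were lower in 4 of 4 animals, GPX1 in 3 and PRDX6 probe 1 in 2. The part of the red cells in these falls was not tested. At day 7 the red cell mean was highest in replicates 4 and 5 (12.40 and 11.69), the animals that also had the highest PRDX2 and GPX4 values at that time (PRDX2 15.26 and 15.27, GPX4 16.00 and 15.87) and the highest PRDX6 probe 1 values (15.88 and 15.10). For GPX1 replicate 5 was highest (18.05) and replicate 4 second lowest (14.48), and for CAT probe 1 replicate 4 (13.10) lay below and replicate 5 (13.44) above the median of 13.34.

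For lymphocytes, all 8 measured B cell markers of 10 were called lower at each time, with MS4A1, the B cell surface protein CD20, at log2 differences of −3.76, −4.31 and −4.32. Of 12 T cell markers 11 were measured (CD3E has no matched probe), and 3, 1 and 0 were called lower at day 3, day 5 and day 7. Of all genes, 7.58%, 9.11% and 7.18% were called lower at these times. The T cell share at day 5, 9.09%, thus lay at the background. The T cell mean had medians of 13.18 before irradiation and 12.36, 12.76 and 13.13 afterwards, beside SOD1 medians of 13.97, 12.44, 12.65 and 13.11. Whether T cells have a part in the SOD1 values was not tested. For cells rich in SOD2, 2, 3 and 3 of 12 measured neutrophil markers and 2, 2 and 1 of 8 monocyte markers were called higher, and none lower. Of all genes, 5.95%, 6.24% and 2.67% were called higher at these times, so these counts are a few genes only. CSF3R, the neutrophil growth factor receptor, was higher by 1.72 at day 3 and 1.82 at day 5 and differed by 0.35 at day 7 (adjusted p = 0.343), beside SOD2 probe 1 at 2.01 and 1.77 times its pre-irradiation mean at day 3 and day 5 and a log2 difference of −0.62 at day 7. The mean over the 12 neutrophil markers had medians over the arrays of 12.66 before irradiation and 13.32, 13.52 and 13.94 afterwards, and the median difference over the 12 genes was 0.98, 1.02 and 0.74, so that the 2 summaries order the days differently. The part of these cells in the SOD2 values was not tested. The monocyte mean had medians of 11.20, 12.02, 11.80 and 11.73. CD14 of monocytes differed by 0.97, 0.88 and 0.03 and was not called. S100A8 of neutrophils differed by 0.93 and 1.17 at day 3 and day 5 and was called at day 7 (1.35), and CSF1R has no matched probe. None of 8 NK cell markers was called, and NCR1 differed by 0.73, 0.17 and −0.74. All 10 measured platelet markers were called higher at day 3, 3 at day 5 and 0 at day 7, with ITGA2B higher by 3.14 and 1.63 at day 3 and day 5 and PPBP by 3.06 at day 3.

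The wider redox system was read through 83 further genes in 5 lists, of which 80 have a probe and 75 were bright enough to be tested. At day 3, 13 of 75 genes (17.3%) were called by brightest probe, 6 higher and 7 lower, against 13.5% of all genes, 5.95% higher and 7.58% lower. At day 5, 10 (13.3%) were called, 3 higher and 7 lower, against 15.4%, 6.24% higher and 9.11% lower, and at day 7, 8 (10.7%) were called, 0 higher and 8 lower, against 9.86%, 2.67% higher and 7.18% lower. These shares lay close to the background at each time, and with the replicate number as a block the day 3 count was 3, when 368 of all 10882 genes were called in place of 1473. By list, 0 of 7 other superoxide and peroxide enzymes were called at any time. Of 22 thioredoxin and glutaredoxin genes 1 was higher and 5 lower at day 3, 1 and 5 at day 5 and 0 and 3 at day 7. Of 21 genes of glutathione and NADPH supply 1 was higher at day 3, none was called at day 5 and 1 was lower at day 7. Of 18 NRF2 and heme breakdown genes 3 were higher and 2 lower at day 3, 2 and 2 at day 5 and 0 and 3 at day 7, and of 7 phagocyte oxidase and peroxidase genes 1 was higher at day 3, none was called at day 5 and 1 was lower at day 7.

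Among these genes the widest differences belonged to GLRX5, a mitochondrial glutaredoxin that serves iron-sulfur cluster assembly and heme synthesis. Its log2 differences at the 3 times were −4.37, −5.70 and −4.40. SESN3, a stress-induced sestrin, had −4.07, −5.20 and −3.88, and SELENOK, a selenoprotein of the endoplasmic reticulum, −1.29, −1.55 and −1.86. BLVRB, the biliverdin reductase of red cells and one of the red cell markers above, had −2.08, −3.16 and −2.85. All 12 of these differences were called. SRXN1, which repairs overoxidized peroxiredoxins, was called lower at day 5 (−1.15) and day 7 (−1.82) after a difference of −0.65 at day 3 that did not pass. PRDX2, PRDX6 probe 1, GPX4 and CAT probe 1 were called lower at the same times, as were 9.11% and 7.18% of all genes. A link between them was not tested.

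Of the phagocyte oxidase, CYBB, its catalytic subunit, was 1.42 higher on the log2 scale at day 3 (adjusted p = 0.00117), and NCF1, a cytosolic subunit, was 1.23 lower at day 7 (adjusted p = 0.00111). OSGIN1, an oxidative stress-induced growth inhibitor, was well above background on 0 of 7 pre-irradiation arrays and 4 of 4 day 3 arrays, at least 2.73-fold higher at day 3 (adjusted p = 0.00464). It is 1 of the 6 genes counted as higher there, and it passed the filter on dim probes through irradiated arrays alone, so its call is given as a description. MAFF, a small MAF protein that pairs with NRF2, was called higher at day 5 (adjusted p = 0.00477), but was well above background on only 1 of 7 pre-irradiation arrays, against 5 of 6 at day 5, so the size of its difference rests on dim signal. MAFF too could pass the filter on dim probes only through irradiated arrays. Its call, 1 of the 3 counted as higher at day 5, is likewise given as a description.

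**Figure D5:**
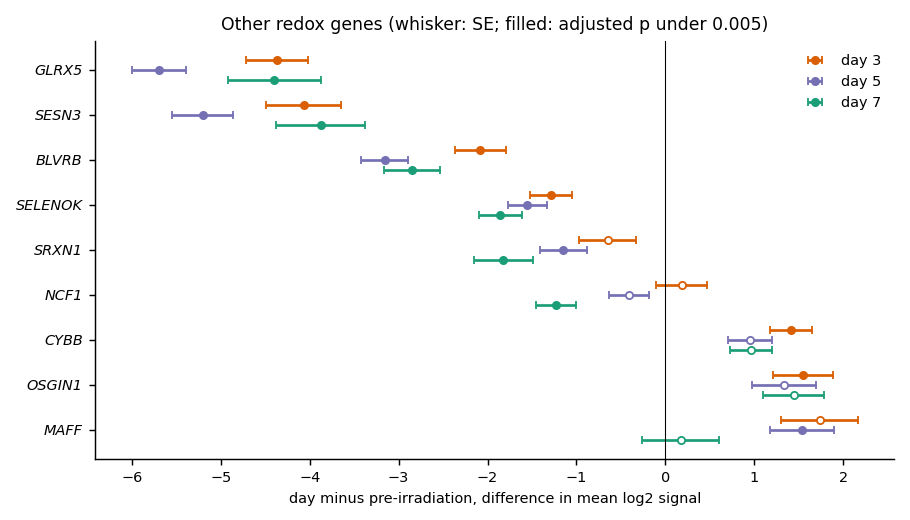
Difference in mean log2 signal from pre-irradiation (x axis, log2 units) for the other redox genes named in the text (y axis) at day 3, day 5 and day 7, with whiskers for the standard error and filled points where the adjusted p was under 0.005. GLRX5 and SESN3 lie lowest at day 5 (−5.70 and −5.20), and OSGIN1 and MAFF were well above background on 0 and 1 of 7 pre-irradiation arrays, so their points are fitted values that rest on dim signal.

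For each of the 10 genes the genes with the most similar profile were read off 10654 genes, as a description over 24 arrays that share animals and sampling times. PRDX2 was most like MACROH2A2, POLR2I and GJD4 (Pearson r 0.98, 0.98 and 0.96), GPX4 most like FAM212B, JOSD2 and NPRL3 (0.95, 0.94 and 0.94) and PRDX6 most like TESPA1, MRPL53 and GMPR (0.92, 0.92 and 0.91). GPX4 and PRDX2 were themselves correlated with r of 0.92, PRDX2 and PRDX6 with 0.88, and GPX4 and PRDX6 with 0.84. After subtraction of the group means these 3 values were 0.64, 0.54 and 0.49. SOD1 was most like MRPL48, OLA1 and TARBP2 (0.93, 0.92 and 0.92), SOD2 had r of 0.92 with FCGR2B, an Fc receptor, and 0.89 with PPP3R1, and CAT was most like RNF5, ACSM3 and STAP1 (0.88, 0.87 and 0.86). GPX1 was most like CD86, IMP3 and SLC48A1 (0.84, 0.82 and 0.80), TXN most like SLC25A33, ZMPSTE24 and HABP4 (0.71, 0.70 and 0.67) and GCLM most like SRP9, ARIH2 and UBE2A (0.82, 0.82 and 0.81). The genes nearest to PRDX1 were SSRP1, KPNA2 and RANBP1, which act in chromatin replication and nuclear transport, with r of 0.92, 0.91 and 0.91 over the arrays and 0.92, 0.91 and 0.92 after subtraction of the group means. The values for TXN and GCLM also moved little on that subtraction, to 0.68, 0.71 and 0.65 and to 0.87, 0.81 and 0.81.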

How the data were processed

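RNA of 24 whole-blood samples was measured on 1-colour arrays. The deposited scanner output holds, for every spot, a linear intensity from which a fitted background surface was subtracted, made with Agilent Feature Extraction 12.0.2.2 per the file headers (10.7 in the submitters' processing notes). In the authors' value table are log2 values of the same intensity with an added constant on each array. The study's methods name a human array, while the files carry a rhesus design.

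Here log2 of the processed signal was taken, flagged spots were left out, saturated spots were kept, spots of a probe were averaged and each array was moved by the median of its differences from the median array, a pre-irradiation array. A probe needed 4 of 24 arrays well above background and was then tested with limma 3.58.1 in R 4.3.3 (Python 3.11.15 for tables), each comparison fitted on its 2 groups, two-sided, at a Benjamini-Hochberg adjusted p under 0.005. The fit was checked on simulated data. Precision is limited by how many arrays there are.

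The members and gene lists were chosen with earlier results of these data known. All members are named, with the 6 largest called changes per day of the other redox lists, the 3 most similar genes per member (1 of them is not reported here), and defining markers of 7 marker lists.

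Replicate numbers were taken as animals: after subtraction of group means, every same-numbered pair of a pre-irradiation and a later array had r between 0.129 and 0.458, and medians for different numbers were negative. The subtraction itself favours negative values for different numbers. All same-numbered pre-irradiation and day 7 arrays also shared a slide, so that animal and slide cannot be told apart for them. Same-numbered pre-irradiation and day 3 or day 5 arrays shared no slide. Alternatives were 75th percentile and quantile normalization, normexp background correction (offset 50), other filters on dim probes, flagged spots kept, blocks for replicate, slide and session, 1 joint fit, the deposited log2 values, the mean of a gene's probes, and leaving out each replicate.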

Additional observations from a re-analysis of the deposited data

Results flagged for a closer look

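In 60 sets of 4 to 7 arrays of 1 probe and 1 time, 3 single arrays stood far from the rest of their group by Dixon's test at the 95% level, where chance flags about 1 set in 20. CAT probe 2 was at 12.4 in replicate 4 at day 5, the next value being 12.77. PRDX6 probe 2 was at 12.32 in replicate 3 at day 7, below the next value of 13.38, and the same array also had the lowest PRDX6 probe 1 value of that day, 13.99. TXN probe 1 was at 12.9 in replicate 6 at day 5, below the next value of 13.83, and TXN probe 2, with which it shares bases, was at its lowest there too (11.78).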

How the results depend on the processing

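Of 562 recomputed differences of the 10 genes from pre-irradiation, 516 kept direction and side of the threshold, 33 lost the call, 4 gained it and 9 changed sign. After normexp background correction 0, 1 and 3 of the 15 probes were called at day 3, day 5 and day 7, and 3, 3 and 3 of the other redox genes, when 136, 238 and 309 of all probes were called in place of 3651, 4543 and 2951. With the replicate block the day 3 counts were 1 probe (751 of all probes) and 3 other redox genes (368 of all genes). Beside the calls already given (PRDX6 probe 2, CAT and GPX1) the block changed no call of the 15 probes. With slide as a block 0 probes and 0 other redox genes were called at day 3, as were 0 of all probes. With session as a block 0 and 0 were called at day 3 (37 of all probes) and 2 and 3 at day 5 (383 of all probes). For day 7 against day 3, 1 probe was called over probes well above background on all arrays (416 of all 19405 such probes). With all groups in 1 fit 5 were called (2179 of all 27138 probes). Without the filter on dim probes 6 other redox genes were called at day 5, when 1298 of all 15040 genes were called in place of 1671 of 10885. When each replicate number in turn was left out, 1 to 2 probes were called at day 3, 5 to 6 at day 5, 3 to 4 at day 7 and 0 in each comparison between days, as were 2 to 13, 4 to 9 and 6 to 10 other redox genes. Over all probes the calls then ran from 863 to 3489 at day 3, from 2713 to 4293 at day 5 and from 1656 to 2576 at day 7. Over all genes they ran from 637 to 969 at day 7, in place of 1073. At day 3 the count of other redox genes was 2 without replicate 4, 3 without 7, 4 without 1, 6 without 2 and 8 without 3, with 391, 724, 550, 697 and 982 of all genes called in place of 1473. At day 5 it was 4 without replicate 2, 5 without 4 and 6 without 1, 6 or 7, with 1013, 1200, 989, 1333 and 1091 of all genes called in place of 1671.

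Signs of differences from pre-irradiation changed only where these were not called: after quantile normalization SOD2 at day 7 (0.21), PRDX1 at day 7 (0.24) and PRDX6 at day 3 (0.10), with the mean of both probes CAT (0.11) and PRDX6 (0.46) at day 3, with slide as a block GCLM at day 3 (0.57), with session as a block GCLM at day 3 (0.42) and day 5 (0.29), and without replicate 7 TXN at day 7 (−0.0445, and from there to 0.146 over the replicates left out). The causes were not tested. Slide could not be a fixed block for day 5 against pre-irradiation, which share no slide. As a random block, chosen after seeing the data, it left 6 probes called, and 4508 of all 27138 probes. At day 7, 977 of all probes were called higher and 1974 lower, and 1160 and 1366 after quantile normalization.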
